A study of Mus musculus with 2 samples.

Results

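The 7 genes described here belong to the machinery of TGF-beta and bone morphogenetic protein (BMP) signalling: the BMP antagonists Grem1 and Nog, the ligand Tgfb3, the nuclear regulator Tgif1, the latency protein Ltbp3, and the TGF-beta targets Ccn2 and Cdkn2b. They were picked by name, with their values in earlier work on these arrays known, so every level and ratio below is a description. Their probes were found by gene name or RefSeq accession, 1 probe for each gene, and make up 7 of the 3757 probes measured. The cells were primary mouse osteoblasts, the bone-forming cells, starved of serum, with both cultures kept in alphaMEM and 0.2% FBS. One culture was left untreated and the other received TGF-beta1 at 2 ng/ml for 24 h. The study asked which genes of osteoblasts respond to this growth factor. The labels give no mouse strain, age or number of animals behind either culture. Each culture was measured on 1 array, so there is no spread between replicates, no test was possible, and array and treatment cannot be told apart.

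TGF-beta is secreted in a latent form that latent TGF-beta binding proteins tether to the extracellular matrix, and bone matrix is a large store of it. Once released, the ligand brings together receptor kinases that phosphorylate Smad proteins, which enter the nucleus and switch target genes on or off. BMPs, relatives of TGF-beta named for their ability to induce bone, signal through related receptors and a separate set of Smads, and secreted antagonists such as gremlin and noggin bind BMPs and keep them from their receptors.

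The RefSeq promoter table for the mouse assembly GRCm38.p6 held 4 of the 7 genes, 3 of them with 1 start. The 250 bases before the start are shown for Grem1 and Cdkn2b, which had the highest and the lowest log2 ratio of the 7. The Grem1 window is chr2:113758649-113758898 on the minus strand, and the Cdkn2b window is chr4:89311033-89311282 on the minus strand. Both are written 5′ to 3′ on the gene's own strand, and capitals mark the letters CAGAC, a core of the sequence that Smad proteins bind.
Grem1: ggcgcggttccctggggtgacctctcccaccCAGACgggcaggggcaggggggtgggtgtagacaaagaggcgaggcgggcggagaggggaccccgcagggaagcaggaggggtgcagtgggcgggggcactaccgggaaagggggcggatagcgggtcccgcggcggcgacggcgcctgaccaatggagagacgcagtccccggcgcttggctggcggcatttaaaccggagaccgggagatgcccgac
Cdkn2b: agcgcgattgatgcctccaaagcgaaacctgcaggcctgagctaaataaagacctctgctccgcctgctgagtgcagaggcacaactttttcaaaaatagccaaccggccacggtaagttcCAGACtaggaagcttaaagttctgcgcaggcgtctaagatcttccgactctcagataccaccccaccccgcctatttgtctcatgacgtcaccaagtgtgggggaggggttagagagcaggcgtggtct
CAGAC was searched on both strands, together with TGTCA, the letters that TGIF proteins recognize. Each window held CAGAC once, beginning 219 bases before the start in Grem1 and 129 bases before it in Cdkn2b, and TGTCA was in neither. Of 32841 such windows in the table, 42.2% held CAGAC and 40.0% held TGTCA on either strand. The gene with the highest and the gene with the lowest ratio thus carried the same short motif, one that is common among mouse promoters. Both other matched genes held CAGAC too, Ltbp3 once, beginning 58 bases before its start, and Tgif1 in some of its 5 windows. TGTCA was absent from the Ltbp3 window and present in some of the Tgif1 windows. A match of letters is not a measured binding site.

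Across the array the signals were similar in scale. The sums were 427889 (untreated) and 431093 (treated). A probe counted as detected on an array when its intensity exceeded 87.4, the brightest lambda phage control spot, which is the threshold the authors set. On both arrays 795 probes were detected, 21.2% of the 3757. The median log2 ratio, treated over untreated, was 0.03 for these 795 and -0.10 for all probes. The 8 lambda spots had ratios from 0.749 to 1.18 in the authors' deposited table and an SD of 0.20 on the log2 scale. Their median log2 ratio was -0.23, so this SD is a spread about a value below 0. The 9 housekeeping spots had ratios from 0.761 to 1.01 in the same table, 8 of them below 1, with a median log2 ratio of -0.12. These spreads are a rough scale for reading single genes and not an error of any gene.

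Of 8 osteoblast markers on the array, 4 were detected on both arrays and 2 on the untreated array only. The type I collagen chain Col1a2 had 1174 untreated and 1132 treated, and osteocalcin, Bglap, had 846 and 840. The matrix protein Sparc was lower on the treated array, with 946 and 631, and the alkaline phosphatase Alpl was higher, with 94.1 and 124. Bone sialoprotein, Ibsp, with 239.9 and 47.9, and the cadherin Cdh11, with 142 and 83.2, were the markers that lay under the threshold on the treated array. Among markers of other cell types, 1 of 3 osteoclast and macrophage genes was detected, Ctsk, on the untreated array only, and the leukocyte marker Ptprc had 43.4 and 28.1, under the threshold. None of 2 chondrocyte genes was detected, 1 of 3 adipocyte genes was, and 4 of 5 skeletal muscle genes were. Of these Myod1 had the higher signal on the treated array, with 646 and 739, while Tnnc2 with 808 and 502, Casq1 with 199.9 and 140.3, and Tnnc1 with 109 and 73.0, detected on the untreated array only, were lower there. The summed signal was 3565 untreated and 2992 treated for the osteoblast list, 1799 and 1490 for the muscle list, 344 and 371 for the adipocyte list, 172 and 124 for the osteoclast and macrophage list, and 72.0 and 101 for the chondrocyte list. The part of other cells in the results below was not tested. In RNA from a whole culture, fewer cells of a type and less RNA per cell cannot be told apart.

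Of the 7 genes, 5 were detected on both arrays and 2 on 1 array only. The 5 had log2 ratios from -0.02 to 0.95 with a median of 0.17, and 4 of them lay above 0, where 53.2% of the 795 probes did. One of the 5, Grem1, was at least 1.5-fold higher with TGF-beta1, and none of the 5 passed the same limit downward. Of the 795 probes, 57 (7.17%) were at least 1.5-fold higher and 65 (8.18%) at least 1.5-fold lower. None of the 5 was at least 2-fold higher, against 12 of 795 (1.51%). Since the genes were chosen with their values known, nothing is read from these counts.

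**Figure D1:**
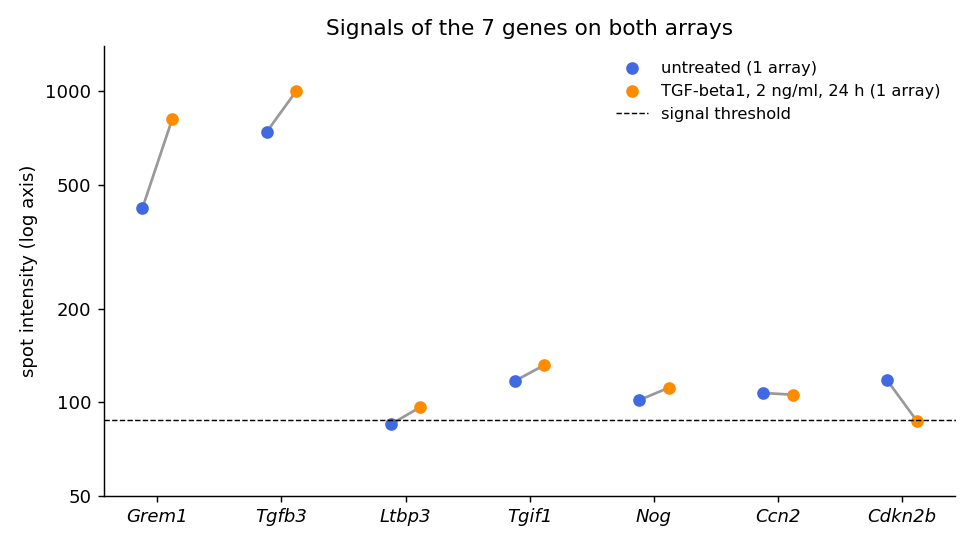
Spot intensity on a log axis (arbitrary units) of the 7 genes on the untreated and the TGF-beta1 array, with 1 point per array, a line joining the points of a gene, and the signal threshold of 87.4 dashed. Grem1 and Tgfb3 lie well above the threshold on both arrays, and the other genes lie within 44.2 units of it. Each gene has its own probe, so heights are not comparable between genes.

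Among the antagonists, Grem1, which encodes gremlin 1, gave the widest separation. Its intensity was 421 without and 814 with TGF-beta1, a 1.93-fold difference and a log2 ratio of 0.95. Both values were clear of the threshold, at 4.82 times and 9.31 times its level. Only 1.64% of the 795 probes had a higher ratio, which put Grem1 in place 14 from the top. The share of probes at least 1.5-fold higher differed with brightness. With the 795 probes cut into 4 bins of equal size by mean signal, it was 24 of 199 (12.1%) in the brightest bin, which holds Grem1 and Tgfb3, and 2 of 199 (1.01%) in the dimmest, which holds Nog, Tgif1 and Ccn2. The 24 neighbours of Grem1 within 2 rows and 2 columns had log2 ratios from -0.19 to 0.51, each below that of Grem1. Since Grem1 was chosen with its value known, nothing is read from this. Its block, G1, had the 4th highest median of 48 blocks, 0.13. Values adjusted for place had the block or neighbour median subtracted and the array's median of -0.10 put back, and Grem1 then had a log2 ratio of 0.72 for the block and 0.70 for the neighbours.

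Nog, which encodes noggin, the other antagonist of the pair, differed little. It had 101 untreated and 111 treated, 14.0 and 23.7 units above the threshold. The log2 ratio of 0.13 lay inside the range of the lambda spots, -0.42 to 0.23, and above their median of -0.23. Of the 795 probes, 39.6% had a higher ratio. Of its 19 neighbours on the array 13 had a lower ratio, so it lay inside their range of -0.54 to 0.36. The antagonists Grem1 and Nog thus had log2 ratios of 0.95 and 0.13 on the same arrays, and the difference between them was not tested.

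**Figure D2:**
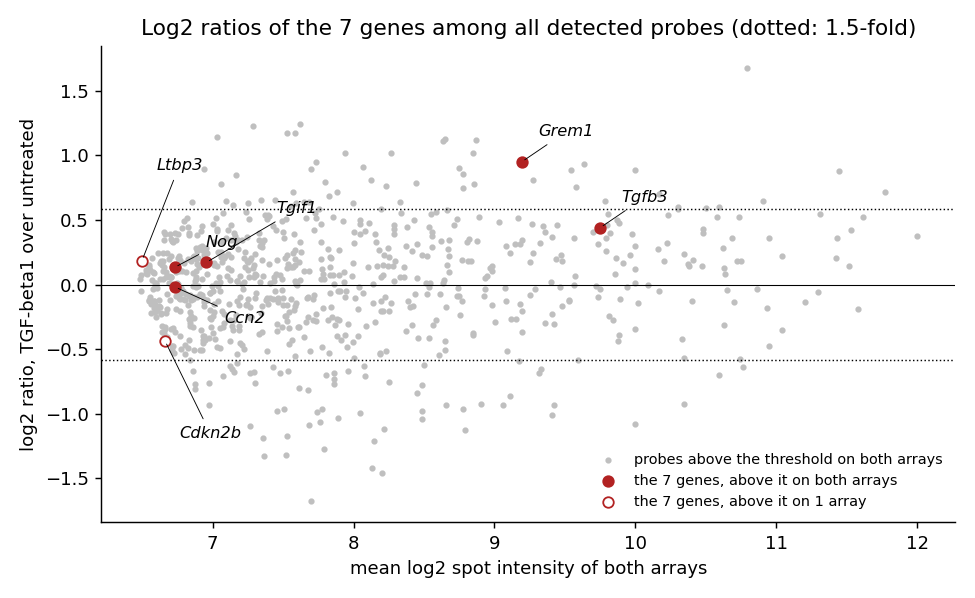
Log2 ratio of treated over untreated intensity against the mean log2 intensity of both arrays for the 795 probes detected on both (grey) and the 7 genes (red, open where detected on 1 array). Grem1 lies above the dotted 1.5-fold line at 0.95, Tgfb3 below it at 0.44, and the other genes at the dim end of the cloud.

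The ligand Tgfb3, a mammalian TGF-beta isoform, was bright on both arrays. It had 739 untreated and 1003 treated, at 8.46 and 11.5 times the threshold. The 1.36-fold difference, a log2 ratio of 0.44, was short of 1.5-fold, and 13.8% of the 795 probes had a higher ratio. Around it on the array the ratios were low. Its block, L1, had a median log2 ratio of -0.34, the 40th of 48 blocks, and its 10 neighbours ranged from -0.63 to 0.18, each under the value of Tgfb3. After subtraction of the block median, Tgfb3 had a log2 ratio of 0.68, and after that of the neighbour median 0.66, both past 1.5-fold. So the value of Grem1 decreased and that of Tgfb3 increased when medians by place were subtracted. With block medians the gap between them narrowed from 0.95 against 0.44 to 0.72 against 0.68. These medians were taken over all probes, detected or not, and 2762 of the array's 3757 probes were under the threshold on both arrays. Whether such medians suit bright probes like Grem1 and Tgfb3 was not tested.

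Ltbp3 holds latent TGF-beta in its complex and supports its secretion. It had 84.8 untreated, 2.63 units under the threshold, and 96.4 treated, 9.0 units over it. Against the lowest signal detected on the untreated array this gave a treated signal at least 1.10-fold higher. The change from undetected to detected was thus a matter of 11.6 intensity units, and of the 24 neighbours of its spot 15 had a lower log2 ratio than its 0.19. The related genes Ltbp1, with 53.8 and 49.7, and Ltbp2, with 44.8 and 36.2, were under the threshold on both arrays.

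Tgif1 encodes a homeodomain protein that binds Smads and represses TGF-beta responsive transcription. Its signals were 117 and then 132 with TGF-beta1, giving a log2 ratio of 0.17, and 35.1% of the 795 probes had a higher ratio. The value was inside the range of the lambda spots, -0.42 to 0.23, and above their median of -0.23. Its block, E1, had a median of -0.27, and each of the 8 neighbours had a lower ratio, from -0.78 to 0.05. With the block median subtracted the log2 ratio of Tgif1 was 0.33, and with the neighbour median subtracted 0.41.

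The targets Ccn2 and Cdkn2b did not have higher deposited signals with TGF-beta1 at 24 h. Ccn2, connective tissue growth factor, a matricellular protein whose gene is widely used as a TGF-beta response marker, had 107 untreated and 106 treated. The difference was 1.37 intensity units, a log2 ratio of -0.02, in the middle of the 795 probes, of which 54.6% had a higher ratio. After quantile normalization the value was 0.04, so its sign depended on the scaling, and after subtraction of the neighbour median it was -0.20. Both signals were close to the threshold, at 1.22 and 1.21 times its level. In the dimmest bin, to which Ccn2 belongs, 5 of 199 probes (2.51%) passed 1.5-fold in either direction.

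Cdkn2b, the cyclin-dependent kinase inhibitor p15, which TGF-beta is known to induce in epithelial cells, had the lower treated signal. It had 118 untreated and 87.1 treated, and the treated signal missed the threshold by 0.36 units. It is therefore given as a bound, at least 1.34-fold lower, against a measured quotient of 1.35. Of its 19 neighbours none had a ratio as low as its log2 ratio of -0.44, the lowest being -0.32. As for Grem1, nothing is read from this. The block median, 0.09, and the neighbour median, 0.17, were above the array's. With these subtracted the value became -0.63 and -0.71, both past 1.5-fold lower. With an offset added to every signal the value was -0.22. Its direction was the same under the 8 other ways of processing tried, with values between -0.71 and -0.22. Some of these hardly differ from the deposited values, and the offset cannot change a sign.

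**Figure D3:**
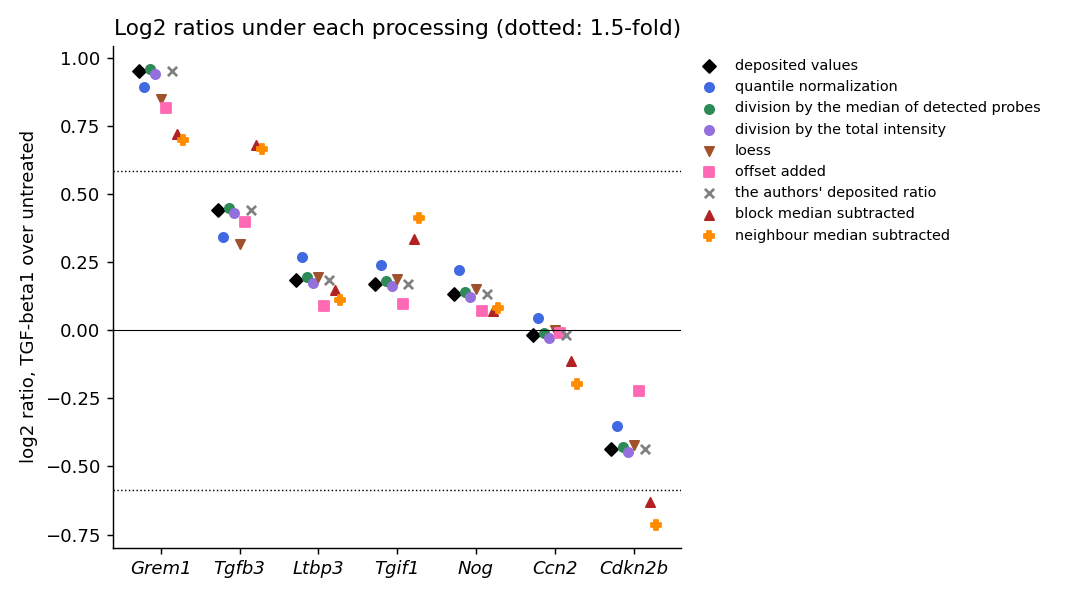
Log2 ratio of each gene as deposited (black diamonds) and under 8 other ways of processing, with 1.5-fold dotted. Grem1 stays above 1.5-fold under each of them, between 0.70 and 0.96. Tgfb3 passes it only after the block or neighbour median is subtracted, and Cdkn2b passes 1.5-fold lower only then. Ccn2 alone has values on both sides of 0.

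Genes whose signals on the 2 arrays were most like those of each detected member came from unrelated families. The distance was taken in log2 intensity over 2 arrays only, so that likeness here says no more than similar brightness and a similar ratio. Nearest to Grem1 was angiotensinogen, Agt, with 468 untreated and 820 treated, followed by the immune adaptor Tyrobp with 481 and 687. Nearest to Tgfb3 were the RNA export factor Nxf1 with 723 and 959 and the F-box protein Fbxl12 with 761 and 1047. The 2 nearest companions of each dim member were close: Nog lay nearest to Fcer2a and Pnck, Tgif1 to Tectb and Wdr1, and Ccn2 to Hars and Insl3, each within 0.051 log2 units. The nearest companions of Grem1 were 0.15 and 0.31 units away.

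A list of 147 TGF-beta and BMP pathway genes, grouped by role, had 46 on the array. Of these 15 were detected on both arrays, 3 on 1 array and 28 on neither. Of the 15, 8 had a ratio above 1 and 7 below, and the median log2 ratio was 0.13, against 0.03 for the 795 probes. Grem1 and the collagen and elastin cross-linking enzyme Lox, with 354 untreated and 608 treated, were at least 1.5-fold higher. Fbn2, a microfibril protein of the matrix, with 488 and 177, and elastin, Eln, with 947 and 495, were at least 1.5-fold lower. That is 4 of 15, where 15.3% of the 795 passed 1.5-fold in either direction. The 15 include members chosen with their values known, Grem1 among them, so nothing is read from this count. After subtraction of the block median 6 of the 15 passed 1.5-fold, while of the 795 probes 71 then passed it higher and 56 lower. Grem1, Lox at 0.65, Tgfb3 at 0.68 and Fkbp1a at 0.79 were the 4 higher, Fbn2 at -1.72 and Gadd45b at -0.66 were the 2 lower, and Eln, at -0.20, no longer passed. Without the 7 genes, 10 of the list were detected on both arrays, 4 with a ratio above 1 and 6 below, and their median was -0.13. Of these 10, in the deposited values, 1 was at least 1.5-fold higher and 2 at least 1.5-fold lower.

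By role, 2 of 4 ligands of the TGF-beta and activin branch were detected on both arrays, Tgfb3 and the stress-induced cytokine Gdf15, which had 102 untreated and 91.4 treated. All 5 BMP ligands on the array were under the threshold, with signals from 12.3 to 64.1, so that the antagonists were measurable here and these ligands were not. Of 5 secreted antagonists and modulators 3 were detected on both, the third being follistatin-like 1, Fstl1, with 279.5 and 207 (log2 ratio -0.43). The secreted modulators therefore did not share a direction. The BMP antagonist chordin, Chrd, had 55.5 untreated and 52.8 treated, under the threshold.

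Of 3 receptors and co-receptors, Tdgf1, a Nodal co-receptor, was detected on the untreated array only, with 92.3 against 69.8, a bound of at least 1.05-fold lower. Among the rest, the receptors Acvr1 and Acvrl1 were under the threshold, as were the 3 Smads on the array, Smad3, Smad4 and Smad6, whose highest signal was 42.4. Among nuclear and receptor-associated regulators, Fkbp1a, which binds the type I receptor and holds it inactive, had 268 and 392 (log2 ratio 0.55). It lies in the same block as Tgfb3, and with the block median subtracted it had 0.79.

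Of 14 TGF-beta target genes on the array 7 were detected on both arrays, 3 with a ratio above 1 and 4 below, with a median of -0.02, which is the value of Ccn2. The higher ones were Lox, the smooth muscle actin Acta2 with 146 and 179, and the metalloprotease inhibitor Timp1 with 205 and 248. The lower ones besides Ccn2 were Eln, the stress gene Gadd45b with 312 and 211, and the AP-1 factor Fosl1 with 309.9 and 289. Ccn1, a relative of Ccn2, had 72.3 untreated and 52.3 treated, under the threshold, and Tgfbi, a matrix protein named for its induction by TGF-beta, had 31.6 and 33.5. Both BMP target genes on the array, Id2 and Hey1, were under the threshold.

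**Figure D4:**
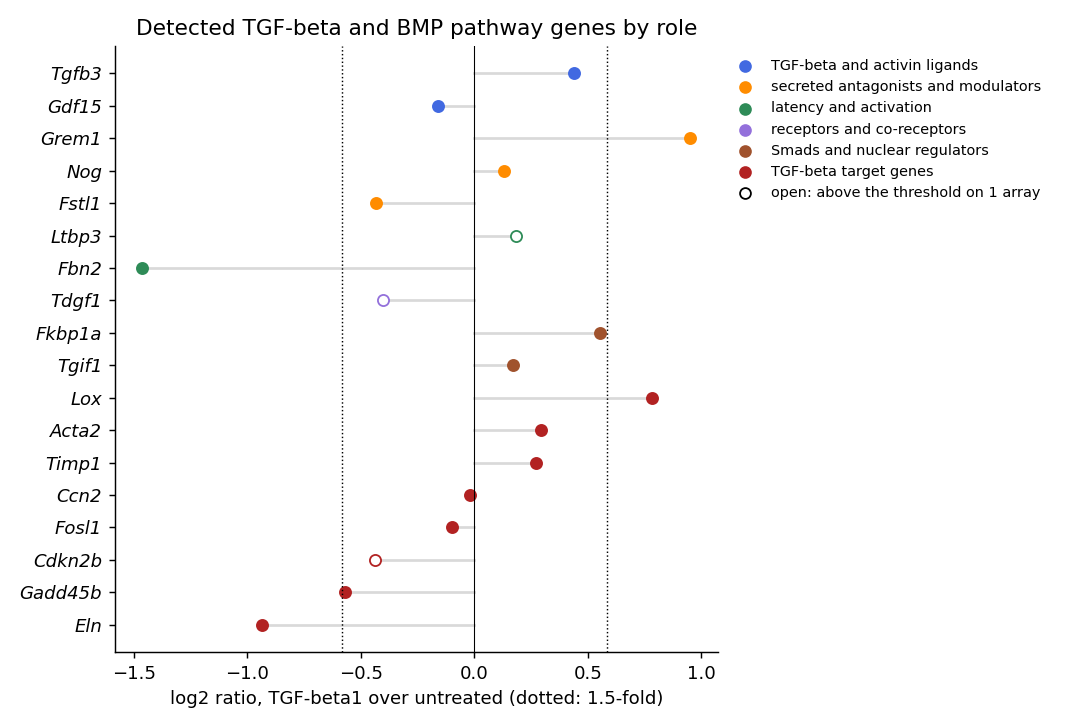
Log2 ratio of treated over untreated intensity for the 18 pathway genes detected on at least 1 array, coloured by role, with 1.5-fold dotted and open points for genes detected on 1 array. Ratios lie on both sides of 0 among ligands, antagonists and targets, from -1.46 for Fbn2 to 0.95 for Grem1.

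The functional classes written beside the spots place Tgfb3 and Ccn2 among growth factors, cytokines and chemokines, and Cdkn2b among inhibitors of cyclin-dependent kinases, while the remaining 4 genes carry a code with no name in the key. Of 53 probes in the growth factor class 19 were detected on both arrays, 12 with a ratio above 1 and 7 below, with a median log2 ratio of 0.14. In that class 1 probe was at least 1.5-fold higher and 1 at least 1.5-fold lower. Tgfb3, at 0.44, lay above the median of its class and Ccn2, at -0.02, below it.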

How the data were processed

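Total RNA of 2 cultures was extracted with TRIZOL, labelled as cDNA with Cy3 and hybridised to 1 single-colour array per culture, per the labels' protocols. The deposited intensities are linear spot values normalized by a method called global, per the file headers, which name also Atlas Iris 1.01 and the Atlas Glass Mouse 3.8 array. How background was estimated is not given in the sources used here, and 3 treated intensities lay below 0. The authors' deposited ratio equalled treated over untreated intensity for 3754 of 3757 probes within 0.0001, and 3 had none. Probe identifiers were joined to gene names through the deposited ratio, identical in 3774 of 3774 spots, and 17 control spots without an identifier were left out. In the workbook 16 columns of values under other sample names were not used.

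Symbols came from the unversioned accession and a RefSeq table of GRCm38.p6, for 3597 probes. The main value was the log2 ratio with nothing added. A gene detected on 1 array has a bound, its bright signal over the higher of its dim signal and the lowest detected signal on the dim array. The alternatives were quantile normalization, division by the median or total, loess (span 0.4, statsmodels 0.14.6), an offset of 96.7 (the 10th percentile of detected signals), the authors' ratio, and subtraction of block or neighbour medians (2 rows and 2 columns, within the block), recentred on the array's median. Fold thresholds and filters on dim probes were also varied, and the calculations were tested on simulated data. Named genes were the 7, pathway genes detected on at least 1 array, and the 2 probes nearest to each member detected on both arrays. Pathway genes under the threshold are named in addition, chosen after their values were seen. Some genes of the list are counted but not reported by name here. The members and lists were chosen with earlier results of these data known. With 1 spot for each of the 7 genes on each array, precision is limited by the number of arrays.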

Additional observations from a re-analysis of the deposited data

How the results depend on the processing

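Of 8 other ways of processing, each kept the log2 ratio of Grem1 at 1.5-fold or more, from 0.70 to 0.96, and each kept the sign of Nog, Tgfb3, Tgif1, Ltbp3 and Cdkn2b. Not all of them could differ. The authors' ratio is the same quotient, division by the median or total moved all probes alike and by little, and an offset cannot change a sign. Agreement under these adds no support. Ccn2 turned to 0.04 after quantile normalization, which raised the median of all probes from -0.10 to 0.03, and was below 0 under the other 7. Values moved by more than the lambda SD of 0.20 in these cases. With the block median subtracted, Grem1 had 0.72 and Tgfb3 0.68. With the neighbour median subtracted, Grem1 had 0.70, Tgfb3 0.66, Tgif1 0.41 and Cdkn2b -0.71. With the offset, which shrinks dim ratios by construction, Cdkn2b had -0.22. Cdkn2b, detected on 1 array only, was past 1.5-fold lower after either median was subtracted. The count of members at least 1.5-fold higher, 1 in the deposited values, was 2 after subtraction of block medians, 2 after that of neighbour medians, 2 at the looser fold threshold, which adds Tgfb3, and 0 at 2-fold. The pathway list's median stayed between -0.02 and 0.22, the lowest over every list member on the array. Among the 795 detected probes, 57 higher and 65 lower at 1.5-fold became 31 and 36 with the offset. They became 71 and 56 with block medians subtracted, and 81 and 65 with neighbour medians subtracted. The cause of the differences by place on the array was not tested. No paired analysis was possible because each group has 1 sample. The 5 members within 44.2 units of the threshold are limited by their signal over background.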

Other observations

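Block medians of the log2 ratio ranged from -0.84 to 0.15 over the 48 blocks of the array, with an SD of 0.25, which is of the order of the members' own ratios apart from Grem1. The pathway genes that passed 1.5-fold higher after subtraction of neighbour medians were Grem1, Lox, Tgfb3 and Fkbp1a, 4 against 2 in the deposited values. Fbn2 alone passed 1.5-fold lower, 1 against 2. The count also rose over the 795 detected probes, with 81 higher against 57 in the deposited values, and 65 lower in both. Tgfb3 and Fkbp1a share block L1, so their values after subtraction of block medians, 0.68 and 0.79, rest on the same block median of -0.34. Their values after subtraction of neighbour medians, 0.66 and 0.94, rest on a separate median for each spot.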
